A study of Rattus norvegicus with 6 samples.

Results

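The matrix metalloproteinase genes Mmp2, Mmp3, Mmp9 and Mmp14 and the inhibitor gene Timp1 were described in rat bone marrow mesenchymal stem cells (rBMSCs) cultured in 3D and 2D Nichoids. These 5 genes were picked by name, as Ensembl gene identifiers, from the 32883 identifiers counted in each library, and all 5 were among the 13523 genes that passed the filter on low counts and were tested. rBMSCs are primary cells that the study took from the bone marrow of Lewis rats and seeded after a short expansion. The 3D Nichoid is a scaffold written by two-photon polymerization in which stacked grids form niches that the cells enter. The 2D Nichoid is 1 layer of the same grid in the same material and served as the flat control. The medium was α-MEM with fetal bovine serum, and RNA was taken on day 4 from 3 samples of each (replicates A, B and C). The labels do not say that the replicates came from separate animals or cultures, so the spread between these libraries may be technical. The edgeR test used below weighs the spread of each gene together with that of the other tested genes. Its p values and intervals therefore do not rest on the spread of 1 gene alone.

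Matrix metalloproteinases are zinc-dependent enzymes that cut the proteins of the extracellular matrix. They are made as inactive precursors, which other proteases open, and tissue inhibitors of metalloproteinases (TIMPs) close the active site of the mature enzyme. In mesenchymal cells these enzymes are known for remodelling the matrix around the cell and for migration through it, and their activity depends on secretion and activation as well as on the mRNA that was measured here.

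Of these genes, Mmp3 was the one with a large difference. Its mRNA was 3.40-fold lower in 3D than in 2D Nichoids. Timp1 was lower by 17.0%. Mmp2 and Mmp14 each differed by about 5% on the scale used here, while Mmp9 did not pass the test. The direction of Mmp2 and Mmp14 turned round when libraries were scaled by total counts alone, and every other fit kept it. By the quasi-likelihood test of edgeR, the adjusted p value was at or under 0.05 in 4 of the 5 genes. Mmp3 and Timp1 were lower in 3D Nichoids, a call that 18.8% of all tested genes received, and Mmp2 and Mmp14 were higher, as were 18.9% of tested genes. A passed test was therefore common among all genes. Only Mmp3 also met the cutoff on log2(FC), with a value under -1, which 1.37% of tested genes did in that direction.

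Total counts were 38747857 to 41860684 per library in 3D Nichoids and 38353363 to 39112286 in 2D Nichoids. Counts were scaled with the TMM factors of edgeR, which correct the total of a library for its composition and ranged from 0.963 to 0.967 in 3D and from 1.03 to 1.04 in 2D Nichoids. Levels are given as CPM, the share of a library's counts, on that scale. Scaling by total counts alone moved log2(FC) by -0.10 at the median over the tested genes, so a change of that size depends on the scaling. In a principal component analysis of the tested genes 2D Nichoid replicate C stood apart on component 2 (14.9% of the variance), at 21.1, where replicates A and B were at -10.6 and -12.1 and the 3D libraries between 0.16 and 0.96. Without that library the log2(FC) was -1.79 for Mmp3, -0.26 for Timp1, 0.07 for Mmp2, 0.05 for Mmp14 and -0.18 for Mmp9, with the same genes past the test. The levels are those of bulk RNA, in which fewer cells of a type and less RNA per cell cannot be told apart.

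**Figure D1:**
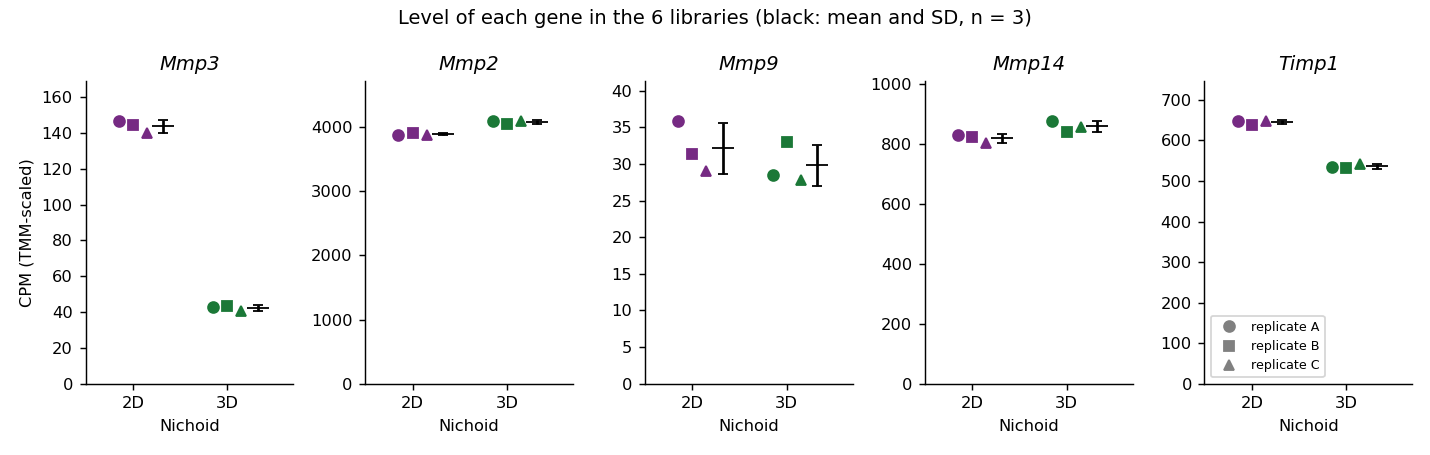
Level of each gene in CPM on TMM-scaled libraries (vertical axis, from 0) in the 2D (purple) and 3D (green) Nichoid libraries, 1 point per library, with the mean and SD of 3 libraries in black. For Mmp3 the 3D Nichoid libraries lie from 40.4 to 43.5 and the 2D Nichoid libraries from 139.9 to 146.9, Timp1 is separated by a smaller step, and Mmp9 overlaps; the small steps of Mmp2 and Mmp14 turn round when libraries are scaled by total counts alone.

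Mmp3 (ENSRNOG00000032626) encodes stromelysin-1, a secreted protease that cuts proteoglycans, fibronectin and laminin and opens the precursors of other metalloproteinases, MMP9 among them. The 3D Nichoid replicates A to C gave 1719, 1631 and 1567 reads on it, and the 2D Nichoid replicates A to C gave 5829, 5728 and 5684. All 3D libraries lay far below all 2D libraries, and within each group the libraries were close together. The mean level was 42.2 ± 1.60 CPM in 3D Nichoids and 144 ± 3.52 CPM in 2D Nichoids (SD, n = 3 each). The log2(FC) was -1.77 (SE 0.05, 95% interval -1.86 to -1.67, adjusted p value = 9.11e-30, edgeR), a level 3.19- to 3.64-fold lower in 3D Nichoids. Under the 15 other settings and left-out libraries that were tried, its log2(FC) stayed between -1.87 and -1.74, and each of these fits called it.

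Among all tested genes, 59 had a lower log2(FC) than Mmp3, which ranked 166 by absolute log2(FC). The difference was larger than is common at its depth. The 3018 genes with a mean normalized count within 2 times that of Mmp3 had a median absolute log2(FC) of 0.14. Of these, 1 had an absolute log2(FC) as large as that of Mmp3, and it moved the other way. This gene, ENSRNOG00000017206, was singled out after its values were seen and had 6546, 6376 and 6463 reads in the 3D libraries A to C and 1763, 1874 and 2106 in the 2D libraries. Its log2(FC) was 1.80 (SE 0.05, adjusted p value = 6.94e-30, edgeR). The files do not pair its identifier with a symbol.

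**Figure D2:**
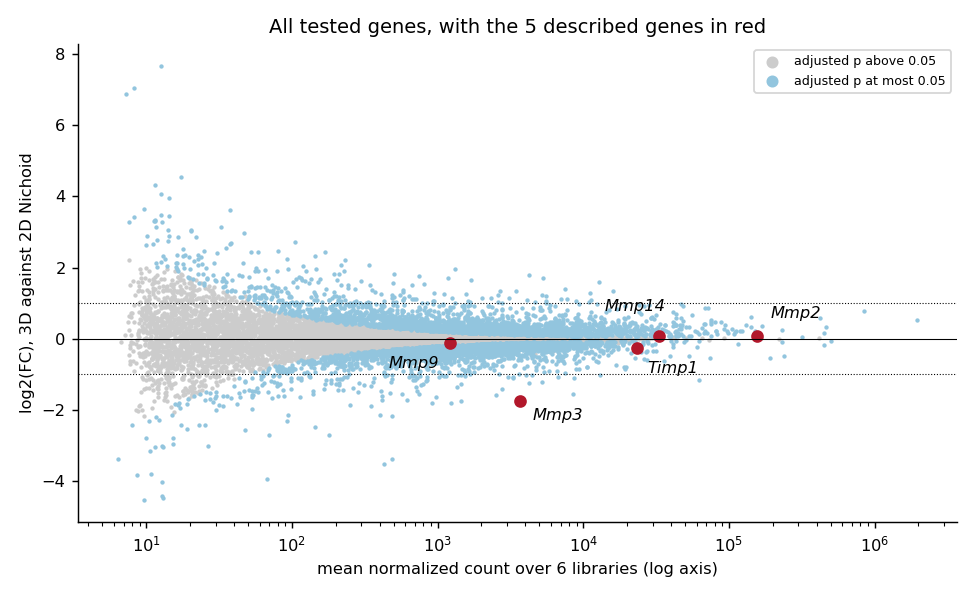
log2(FC) of 3D against 2D Nichoids (vertical axis) against the mean normalized count over the 6 libraries (horizontal log axis) for the 13523 tested genes, with adjusted p values of at most 0.05 in blue, the others in grey, and the described genes in red. Dotted lines mark a log2(FC) of 1 and -1. Mmp3 lies at -1.77, below nearly all genes of like count, while Mmp2, Mmp9, Mmp14 and Timp1 lie within the band of most genes. The side of 0 on which Mmp2 and Mmp14 lie changes when libraries are scaled by total counts alone.

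The sequence before the start of Mmp3 is shown because this is the gene that differed most. In the RefSeq gene order Mmp3 stands in a row of its own family, with Mmp13, Mmp12 and Mmp1b on one side and Mmp1, Mmp10, Mmp8, Mmp27, Mmp20 and Mmp7 on the other. Mmp10 encodes the closely related stromelysin-2. How the study's counting dealt with reads that align to more than 1 of these genes is not given in the sources used here, so the counts of Mmp3 are uncertain to that extent. The 236 bases before the first RefSeq start of Mmp3 (GRCr8, chr8:12925031-12925266, plus strand) are given 5′ to 3′, with capitals for an ETS motif (AGGAAG), an AP-1 motif (TGANTCA) and a TATA box (TATAAA).
Mmp3: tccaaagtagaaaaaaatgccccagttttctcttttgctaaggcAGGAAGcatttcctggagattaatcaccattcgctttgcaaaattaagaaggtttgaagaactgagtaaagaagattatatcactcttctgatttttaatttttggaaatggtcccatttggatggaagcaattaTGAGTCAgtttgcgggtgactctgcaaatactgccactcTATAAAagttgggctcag

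AP-1 is a transcription factor made of Jun and Fos proteins that is known for inducing stromelysin genes, ETS factors often act beside it, and the TATA box positions the start of transcription. The start used by the RefSeq promoter table lies 14 bases downstream of the first start of Mmp3, and motif positions are counted from that table start. Both strands of the 250 bases before it were searched, which are the 236 printed bases and 14 more that are not printed and held no match. The motifs do not overlap each other. The AP-1 motif of Mmp3 lay 71 to 65 bases, the ETS motif 206 to 201 bases and the TATA box 32 to 27 bases before the table start. Of 33469 RefSeq promoters searched in the same way, 6.34% held the AP-1 motif, 29.5% the ETS motif and 12.9% the TATA box. The GC box (GGGCGG), found in 30.5% of promoters, was not matched before Mmp3. The matches describe letters in this window, and binding was not measured.

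Timp1 (ENSRNOG00000010208) encodes TIMP1, a secreted inhibitor of most soluble metalloproteinases, MMP3 and MMP9 among them, that acts poorly on the membrane-bound MMP14. It had 21496, 19940 and 21025 reads in the 3D libraries A to C, while the 2D libraries A to C had 25760, 25349 and 26351. All 3D libraries lay below all 2D libraries, by a much smaller step than for Mmp3. The mean level was 536 ± 5.54 CPM in 3D and 645 ± 6.05 CPM in 2D Nichoids (SD, n = 3 each). The log2(FC) was -0.27 (SE 0.02, 95% interval -0.31 to -0.23, adjusted p value = 4.83e-14, edgeR), and 40.3% of tested genes had an absolute log2(FC) at least as large. It stayed between -0.37 and -0.24 in the other fits, all of which called it.

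In RefSeq, Timp1 overlaps 1 other gene, the synapsin gene Syn1, and whether the counting used strand is not given in the sources used here. The RefSeq promoter window of Timp1 (GRCr8, chrX, minus strand) lies downstream of the first start of other Timp1 models, so short stretches around motifs are shown to set beside Mmp3. It held 2 ETS motifs and a GC box on the opposite strand (CCGCCC as read on the strand of Timp1), and neither the AP-1 motif nor the TATA box was matched. The stretches were read at chrX:3771199-3771228 and chrX:3771247-3771276, with the motif in capitals.
Timp1, ETS motif 94 to 89 bases before the table start: agtaatgcgtccAGGAAGcctggaggcagt
Timp1, GC box 142 to 137 bases before the table start: tcagcctggggcCCGCCCctaggctttgac
The promoter table matched Mmp3 and Timp1 and did not hold Mmp2, Mmp9 and Mmp14.

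Mmp2 (ENSRNOG00000016695) encodes gelatinase A, which cuts denatured collagen and the type IV collagen of basement membranes. It took 0.39% to 0.40% of all counts in each of the 6 libraries. Its reads numbered 165019, 151733 and 159020 in the 3D libraries A to C, against 153898, 154911 and 157550 in the 2D libraries A to C. On the TMM scale all 3D libraries lay above all 2D libraries, at 4082 ± 29.0 CPM against 3886 ± 13.5 CPM (SD, n = 3 each). The log2(FC) was 0.07 (SE 0.01, 95% interval 0.05 to 0.10, adjusted p value = 1.41e-05, edgeR). By total counts alone it was -0.03 (adjusted p value = 0.0386, edgeR), so the direction turned with that scaling, while every other fit kept it positive. An absolute log2(FC) at least as large was found in 81.1% of tested genes.

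Mmp14 (ENSRNOG00000010947) encodes MT1-MMP, a protease anchored in the cell membrane that cuts fibrillar collagen and activates the precursor of MMP2. In the 3D libraries A to C it had 35430, 31506 and 33280 reads, compared with 33038, 32702 and 32667 in the 2D libraries A to C. The raw counts of the groups overlapped, and on the TMM scale they were separated by a narrow gap, from 841 CPM in the lowest 3D library to 833 CPM in the highest 2D library. The means were 860 ± 19.4 CPM and 820 ± 14.5 CPM (SD, n = 3 each). The log2(FC) was 0.07 (SE 0.02, 95% interval 0.03 to 0.11, adjusted p value = 0.00676, edgeR), but it was -0.03 by total counts alone (adjusted p value = 0.161, edgeR). Without 3D Nichoid replicate A it was 0.05 and no longer passed (adjusted p value = 0.0756, edgeR).

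Mmp9 (ENSRNOG00000017539) encodes gelatinase B, which shares most substrates with MMP2 and is best known from leukocytes, osteoclasts and inflamed tissue. The 3D libraries A to C held 1148, 1238 and 1080 reads of it, and the 2D libraries A to C held 1425, 1246 and 1180. Markers of such cells were not analysed here. Replicate B was the highest of the 3D libraries and replicate A the highest of the 2D libraries, and the groups overlapped. The means were 29.8 ± 2.82 CPM and 32.1 ± 3.49 CPM (SD, n = 3 each). Its log2(FC) was -0.11 (SE 0.08, 95% interval -0.28 to 0.06, adjusted p value = 0.325, edgeR), an interval that reaches from 0.83 to 1.04 times the level in 2D Nichoids. By total counts alone, where all genes shifted by -0.10, it was -0.21 (adjusted p value = 0.0371, edgeR). Left-out libraries moved it between -0.19 and -0.02 without a call, the latter without 2D Nichoid replicate A.

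The genes also differed in how closely replicates repeated. The SD of Mmp9 was 9.48% of its mean in 3D and 10.9% in 2D Nichoids, where independent reads alone would give 2.94% and 2.79%. For Mmp3, with a like or larger count, the SD was 3.80% and 2.45% of the mean, against 2.47% and 1.32%. For Mmp2 it was 0.71% and 0.35%, against 0.25% and 0.25%, and for Timp1 1.03% and 0.94%, against 0.69% and 0.62%. For Mmp14 it was 2.25% and 1.77%, against 0.55% and 0.55%. In all 5 genes and both groups the SD was above the value for independent reads alone. An SD of 3 libraries is uncertain, and the excess was not tested. The groups did not overlap in 4 of the 5 genes, Mmp9 excepted, on the TMM scale, as in 46.9% of all tested genes.

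**Figure D3:**
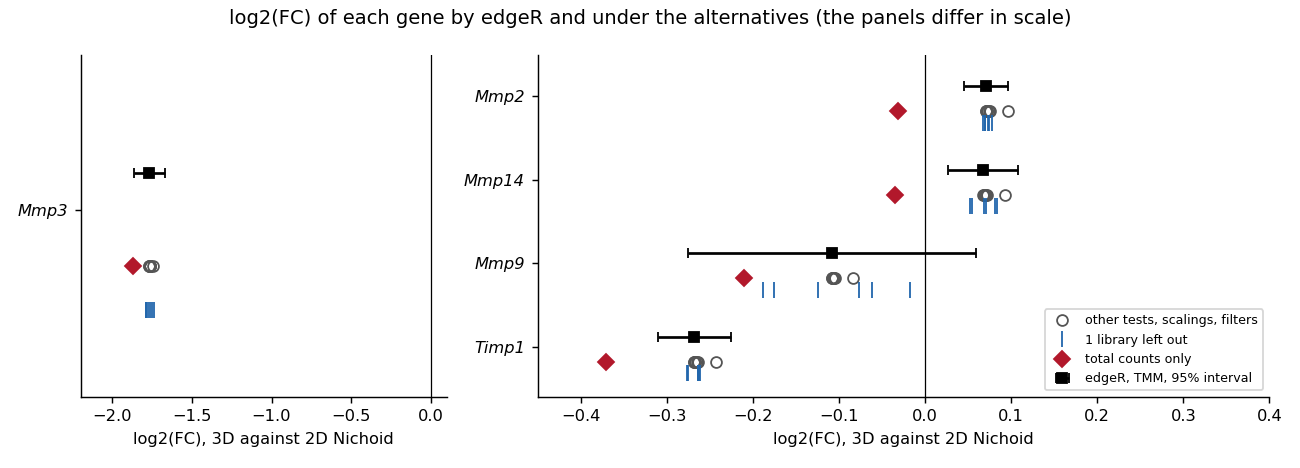
log2(FC) of 3D against 2D Nichoids (horizontal axis, panels on different scales) for each gene, with the edgeR estimate on TMM scaling and its 95% interval in black, scaling by total counts alone in red, other tests, scalings and filters as open circles, and fits without 1 library as blue bars. Mmp3 and Timp1 stay below 0 in all of them, Mmp2 and Mmp14 cross 0 when libraries are scaled by total counts alone, and the interval of Mmp9 holds 0.

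To compare protease with inhibitor without any scaling of libraries, the counts of each protease were divided by those of Timp1 in the same library. A ratio of counts of 2 genes also holds their lengths, so its change between the groups is read and its size is not. The ratio of Mmp3 to Timp1 reads was 0.0800, 0.0818 and 0.0745 in the 3D libraries A to C, but 0.226, 0.226 and 0.216 in the 2D libraries A to C. The ratio was 2.83-fold lower in 3D Nichoids, with no overlap. Mmp3 thus differed in the same direction as its inhibitor and by more.

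For Mmp2 the ratio to Timp1 was 7.68, 7.61 and 7.56 in the 3D libraries A to C and 5.97, 6.11 and 5.98 in the 2D libraries, which is 1.26-fold higher in 3D Nichoids. For Mmp14 it was 1.65, 1.58 and 1.58 against 1.28, 1.29 and 1.24, also 1.26-fold higher. Relative to Timp1, both genes were thus higher in every 3D library, whatever the scaling, unlike their levels taken alone. On the TMM scale the log2(FC) of Timp1 was -0.27, against 0.07 for each of Mmp2 and Mmp14. Both ratios therefore reflect mainly the lower level of Timp1, which they share, and are not 2 separate results. For Mmp9 the ratios overlapped, from 5.14 to 6.21 reads per 100 reads of Timp1 in 3D and from 4.48 to 5.53 in 2D Nichoids. In a two-sided exact permutation test over the 6 libraries, p = 0.1 for Mmp2, Mmp3 and Mmp14, the smallest p that 3 libraries against 3 allow, and p = 0.3 for Mmp9. Adjusted over the 4 ratios by Benjamini-Hochberg, the values of this exact test were p = 0.133 and p = 0.3, so none could pass 0.05 in this design.

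Among the proteases themselves, Mmp2 and Mmp14, which each differed little between 3D and 2D Nichoids, kept nearly the same ratio. The 3D libraries A to C held 4.66, 4.82 and 4.78 reads of Mmp2 per read of Mmp14, and the 2D libraries A to C held 4.66, 4.74 and 4.82, a difference of 0.003 on the log2 scale with overlapping groups. Per 100 reads of Mmp14 there were 17.4 to 17.6 reads of Mmp3 in 2D Nichoids and 4.71 to 5.18 in 3D Nichoids, 3.57-fold fewer, without overlap. Between the less counted proteases, the 3D libraries A to C held 66.8, 75.9 and 68.9 reads of Mmp9 per 100 reads of Mmp3, and the 2D libraries held 24.4, 21.8 and 20.8. These ratios were not tested.

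**Figure D4:**
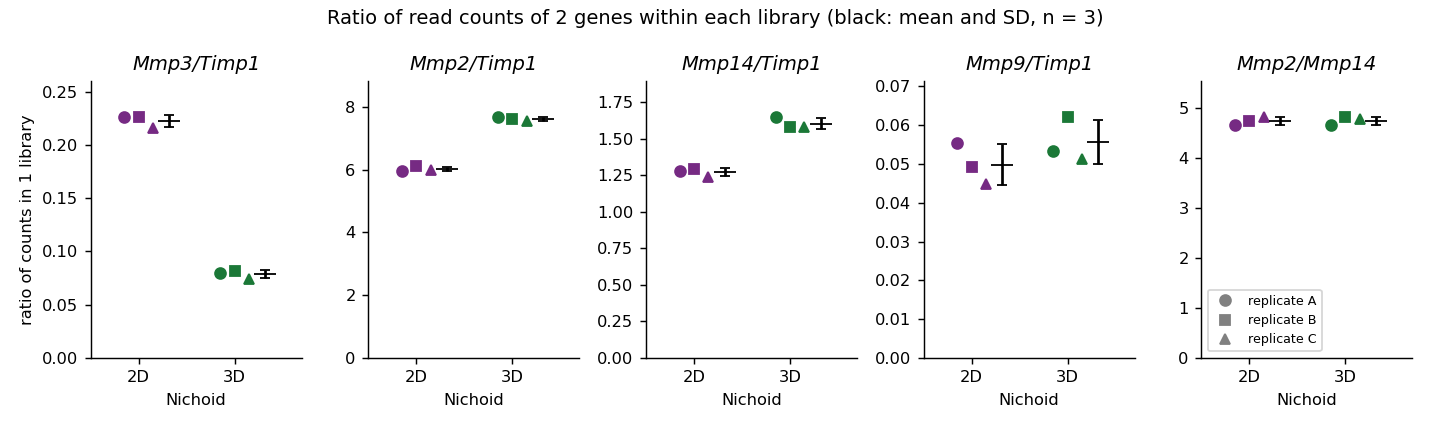
Ratio of the read counts of 2 genes within each library (vertical axis, from 0), in 2D (purple) and 3D (green) Nichoids, with 1 point per library and the mean and SD of 3 libraries in black. Mmp3 to Timp1 is lower in 3D Nichoids, Mmp2 and Mmp14 to Timp1 are higher, and Mmp9 to Timp1 and Mmp2 to Mmp14 overlap.

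The genes whose profile over the 6 libraries was nearest to these were sought among 11610 other genes whose mean normalized count was 50 or more, by the root mean square difference of log2 levels after each gene's own mean was taken off. Nearest to Mmp3 was ENSRNOG00000054957, at 0.03, with 683, 644 and 643 reads in the 3D libraries and 2316, 2306 and 2209 in the 2D libraries. Nearest to Timp1 was ENSRNOG00000017279, at 0.01, with 5322, 5057 and 5259 reads in 3D and 6459, 6408 and 6588 in 2D. Of the 2 genes nearest to Mmp2, ENSRNOG00000031479 passed the test, at a distance of 0.009, with 41325, 38591 and 39903 reads in 3D and 39097, 39151 and 39532 in 2D. Its log2(FC) was 0.07, less than the shift of all genes under scaling by total counts. None of the genes nearest to Mmp14 and Mmp9 passed the adjusted p value. The libraries form 2 groups, so nearness here describes a like difference between the groups and a like spread within them.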

How the data were processed

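RNA from 6 samples was sequenced as single-end reads. The authors aligned the reads with STAR 2.7.0a and counted them per Ensembl gene with HTSeq, and the deposited values are whole read counts without normalization. Per the labels the build was Rnor_6.0 and HTSeq was version 0.12.4, while the study's methods name another build and version, and the difference could not be settled here. Strand, multi-mapped reads and PCR copies are not described there.

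Groups came from the sample labels. The model of edgeR 4.0.16 was run in R 4.3.3 (filterByExpr, TMM, robust quasi-likelihood test, Benjamini-Hochberg adjustment over 13523 genes, no covariates), with DESeq2 1.42.0 and limma 3.58.1 as alternatives. The SE is the log2(FC) divided by the square root of F. The threshold on the adjusted p value was 0.05, and the study's cutoff is an absolute log2(FC) above 1. Ratios had 0.5 added to both counts for the test, on the log2 scale, and used SciPy 1.17.1. The procedure was tested on simulated counts.

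The genes, lists and tests were chosen with earlier results of these data known. Upper-quartile factors and leaving out the 10 most counted genes were added after seeing the data. Genes were named as the 5 members and, by rule, the 2 nearest in profile to each, of which only a few are given by identifier. Lists of other metalloproteinases, inhibitors, activators, substrates, transcription factors and cell type markers had been drawn up, but the files and reference tables pair 0 Ensembl identifiers with symbols, so those genes and the labelled cell type were not analysed here. Sequences came from RefSeq on GRCr8, another build than that of the counts.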

Additional observations from a re-analysis of the deposited data

How the results depend on the processing

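Mmp3 and Timp1 kept their direction and their call in all 15 alternatives. By total counts alone Mmp2 turned to -0.031 and Mmp14 to -0.035, and Mmp9 passed the threshold at -0.21, while the median of all tested genes moved by -0.10; this follows from leaving out the composition factor. With 1 library left out at a time, the log2(FC) of Mmp14 ranged from 0.052 to 0.084 and lost its call only without 3D Nichoid replicate A. In a replicate block fit on the letters A, B and C the log2(FC) was 0.07 for Mmp2, -0.11 for Mmp9, -1.77 for Mmp3, 0.07 for Mmp14 and -0.27 for Timp1, with no call changed. Libraries of the same letter shared no deviation from their group means (correlations across genes of 0.01, -0.01 and 0.01 for A, B and C). This cannot settle whether the letters paired the libraries. The differences in log2 ratio to Timp1 kept their sign in all 8 alternatives each. For Mmp2 and Mmp14 scaling by total counts alone moved the value by more than its interval allows, and for Mmp9 the spread between libraries was wider than counting error.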
